A study of Mus musculus with 12 samples.

Results

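Interferon-stimulated genes other than the oligoadenylate synthetases were followed in glomerulus-enriched kidney RNA of a mouse model of adriamycin (ADR) nephropathy. The members are 43 genes given by symbol and found by an exact match in the count tables, 43 of the 26264 gene symbols counted, and all 43 passed the filter on low counts among 17002 tested genes. They comprise 4 transcription factors, 5 nucleic acid sensors, 4 IFIT proteins, 4 genes of the ISG15 system, 14 other antiviral effectors, 3 genes of ADP-ribosylation, 7 interferon-inducible GTPases and 2 immunoproteasome subunits. The study asked how BALB/cAjcl (Ajcl) and BALB/cByJcl (ByJcl), closely related albino substrains, differ before and after glomerular injury by ADR, an anthracycline that is toxic to podocytes. All animals were males, 8 weeks old, from the same breeder. Each of 4 groups had 3 libraries: Ajcl and ByJcl at baseline, labelled as untreated, and Ajcl and ByJcl at Day 5 after a single intravenous dose of 10 mg/kg ADR. Glomeruli were collected with magnetic beads perfused through the vasculature, so the RNA comes from podocytes, endothelium and mesangium with varying amounts of tubule and blood cells.

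Interferons act through cell surface receptors on the Janus kinases and STAT proteins. Type I interferon assembles STAT proteins and IRF9 into a complex that binds the interferon-stimulated response element (ISRE), while interferon gamma acts through STAT dimers at the gamma-activated site (GAS), and IRF1 carries that signal further. The induced genes encode sensors of foreign nucleic acid, proteins that block viral translation, entry or release, the ubiquitin-like protein ISG15, large GTPases that attack pathogen vacuoles, and the proteasome subunits that prepare peptides for MHC class I. Most of them are transcribed at a low tonic level in unstimulated kidney cells.

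The promoter sequences show which of these elements lie near the gene starts of the members. Windows from 250 bases before to 50 bases after the gene start (RefSeq, GRCm38.p6) were matched for 33 of 43 members, and both strands were searched. The ISRE was searched as GAAA, any 2 bases and GAAA, and it occurred in 18 of the 33 members (54.5%) against 1079 of 27025 genes with a window (3.99%). The GAS was searched as TTCNNNGAA and occurred in 10 of the 33 members (30.3%) against 2582 of 27025 genes (9.55%). Such a match describes the letters and does not show that a factor binds there. The windows below are from genes called at Day 5 in ByJcl, at least 1 for each kind of element, with every match in capitals, read 5′ to 3′ along the gene from the reference mouse genome and placed on GRCm39 by an exact match.

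Irf1 (chr11:53660705-53660804, plus strand): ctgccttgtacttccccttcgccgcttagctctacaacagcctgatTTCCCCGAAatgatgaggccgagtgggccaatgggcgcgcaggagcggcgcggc
Ifit3 (chr19:34560762-34560861, plus strand): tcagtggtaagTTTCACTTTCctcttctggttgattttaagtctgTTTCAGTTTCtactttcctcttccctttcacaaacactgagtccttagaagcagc
Isg15 (chr4:156285287-156285386, minus strand): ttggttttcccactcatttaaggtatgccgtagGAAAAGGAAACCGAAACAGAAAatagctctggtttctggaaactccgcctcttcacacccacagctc
Bst2 (chr8:71990186-71990285, minus strand): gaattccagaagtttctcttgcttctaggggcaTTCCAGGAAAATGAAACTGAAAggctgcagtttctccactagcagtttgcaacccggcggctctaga
Gbp2 (chr3:142326320-142326419, plus strand): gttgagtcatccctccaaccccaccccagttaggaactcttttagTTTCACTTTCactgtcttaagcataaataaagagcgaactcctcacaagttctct
Igtp (chr11:58090282-58090381, plus strand): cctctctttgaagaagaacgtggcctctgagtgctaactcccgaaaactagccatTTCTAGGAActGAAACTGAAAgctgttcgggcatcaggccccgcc
Psmb8 (chr17:34417026-34417125, plus strand): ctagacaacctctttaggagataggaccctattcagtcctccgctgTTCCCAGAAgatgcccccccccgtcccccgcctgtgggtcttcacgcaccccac

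Irf1 and Psmb8 show a single GAS, and Gbp2 shows a single ISRE that reads on the opposite strand. Ifit3 holds a pair of separate ISRE matches, also on the opposite strand, and the long run of capitals in Isg15 is made of 3 overlapping ISRE matches. In Igtp a GAS and an ISRE lie close together, and in Bst2 a GAS overlaps the first of a pair of ISRE matches that overlap each other. Several members are also neighbours in the genome. The 4 IFIT genes lie within chr19:34527932-34632174, Gbp2, Gbp3 and Gbp7 within chr3:142236044-142343779, and Igtp and Irgm2 share the stretch chr11:58089840-58113615, all on GRCm39.

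Total counts per library ran from 42198416 to 54687045, and 3 counts corresponded to 0.0554 to 0.0702 CPM (counts scaled to a common library size). Most of the low counts were even numbers, and whether both ends of a read pair were counted is not given in the sources used here, so a low count or a floor of 3 counts may stand for fewer molecules. Podocyte markers summed to between 7031 and 20648 CPM in a library, and 13 leukocyte markers to between 35.2 and 133 CPM. Levels are TMM-normalized CPM, written in the order of replicates 1, 2 and 3. Replicate 1 of Ajcl at Day 5, which the study set aside for reduced glomerular purity and which had the highest sum of 6 tubule markers (3736 CPM, against 323 to 3555 CPM in the others), is printed but takes no part in the fits, so that Ajcl at Day 5 has n = 2 and the other groups n = 3. Fold changes (log2FC with its SE) come from the quasi-likelihood fit of edgeR, with p-values adjusted by Benjamini-Hochberg over 17002 genes, and a gene with an adjusted p below 0.05 is called. Bulk RNA cannot tell fewer cells of a type from less RNA per cell. The baseline and the Day 5 counts were deposited in separate tables, so a difference in table processing and the effect of ADR cannot be told apart.

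In ByJcl glomeruli, 28 of 43 interferon-stimulated genes rose at Day 5 after ADR, against 5.75% of all genes called higher, and 0 of 43 fell, against 4.83% of all genes called lower. The estimates of all 43 lay above 0 with a median log2FC of 0.74, while the median over all 17002 genes was 0.0066. The 7 interferon-inducible GTPases were all called (median 1.74), as were both immunoproteasome subunits (median 1.53) and all 4 IFIT genes (median 0.89). Of the other groups, 3 of 4 transcription factors, 3 of 5 nucleic acid sensors, 7 of 14 other effectors, 1 of 4 genes of the ISG15 system and 1 of 3 genes of ADP-ribosylation were called. For 33 of 43 members the 3 Day 5 libraries lay above the 3 baseline libraries without overlap, against 15.9% of all genes. DESeq2 called 32 of 43 members higher, against 8.95% of all genes, and these included all 28. The count rests on few libraries: it was 15 without ByJcl baseline replicate 1, 15 without baseline replicate 3, 18 without baseline replicate 2 and 18 without Day 5 replicate 2. Calls over all genes, in both directions, fell in the same fits, from 1800 to 841, 1063, 730 and 680 in that order. A core of 14 members was called under all 18 alternatives run, namely Irf1, Irf7, Ifit2, Ifit3, Ifit3b, Bst2, Ifitm3, Xaf1, Ifi35, Gbp2, Gbp3, Igtp, Irgm1 and Irgm2, and each of the other 14 was lost in at least 1 and at most 15 of them.

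In Ajcl glomeruli, Ifit3 was the 1 member called at Day 5, against 0.306% of all genes called higher, and 0 members were called lower, against 0.00588% of all genes. Of the estimates 42 of 43 lay above 0 and the median log2FC was 0.63, against -0.0091 over all genes. An unadjusted p below 0.05 was found for 32 members, against 1666 of 17002 genes, and DESeq2 called 15 members higher, against 1.44% of all genes. In 34 of 43 members both Day 5 libraries lay above the 3 baseline libraries, against 13.3% of all genes. The 2 Day 5 libraries were unlike. Replicate 3 was the highest of the 3 Ajcl Day 5 libraries for 35 of 43 members (81.4%, against 28.3% of all genes), and without it no member was called, with 11 at an unadjusted p below 0.05 and a median of 0.38, while 11 of 17672 genes were called in either direction. Without replicate 2 instead, 10 members were called, against 180 of 17742 genes in either direction (53 of 17002 in the reported fit), and the median was 0.85, with the lone library assumed to vary like those of the other groups. With replicate 1 added to the fit, Ifit3 was still the 1 member called in Ajcl, against 54 of 16612 genes in either direction. In that fit 24 members were called in ByJcl, against 1197 of 16612 genes (978 higher and 822 lower of 17002 in the reported fit). The single call on Ifit3 was also lost without any 1 of the 3 Ajcl baseline libraries, without ByJcl baseline replicate 3 and without ByJcl Day 5 replicate 3, and it gained Irf7 without ByJcl Day 5 replicate 1.

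**Figure D1:**
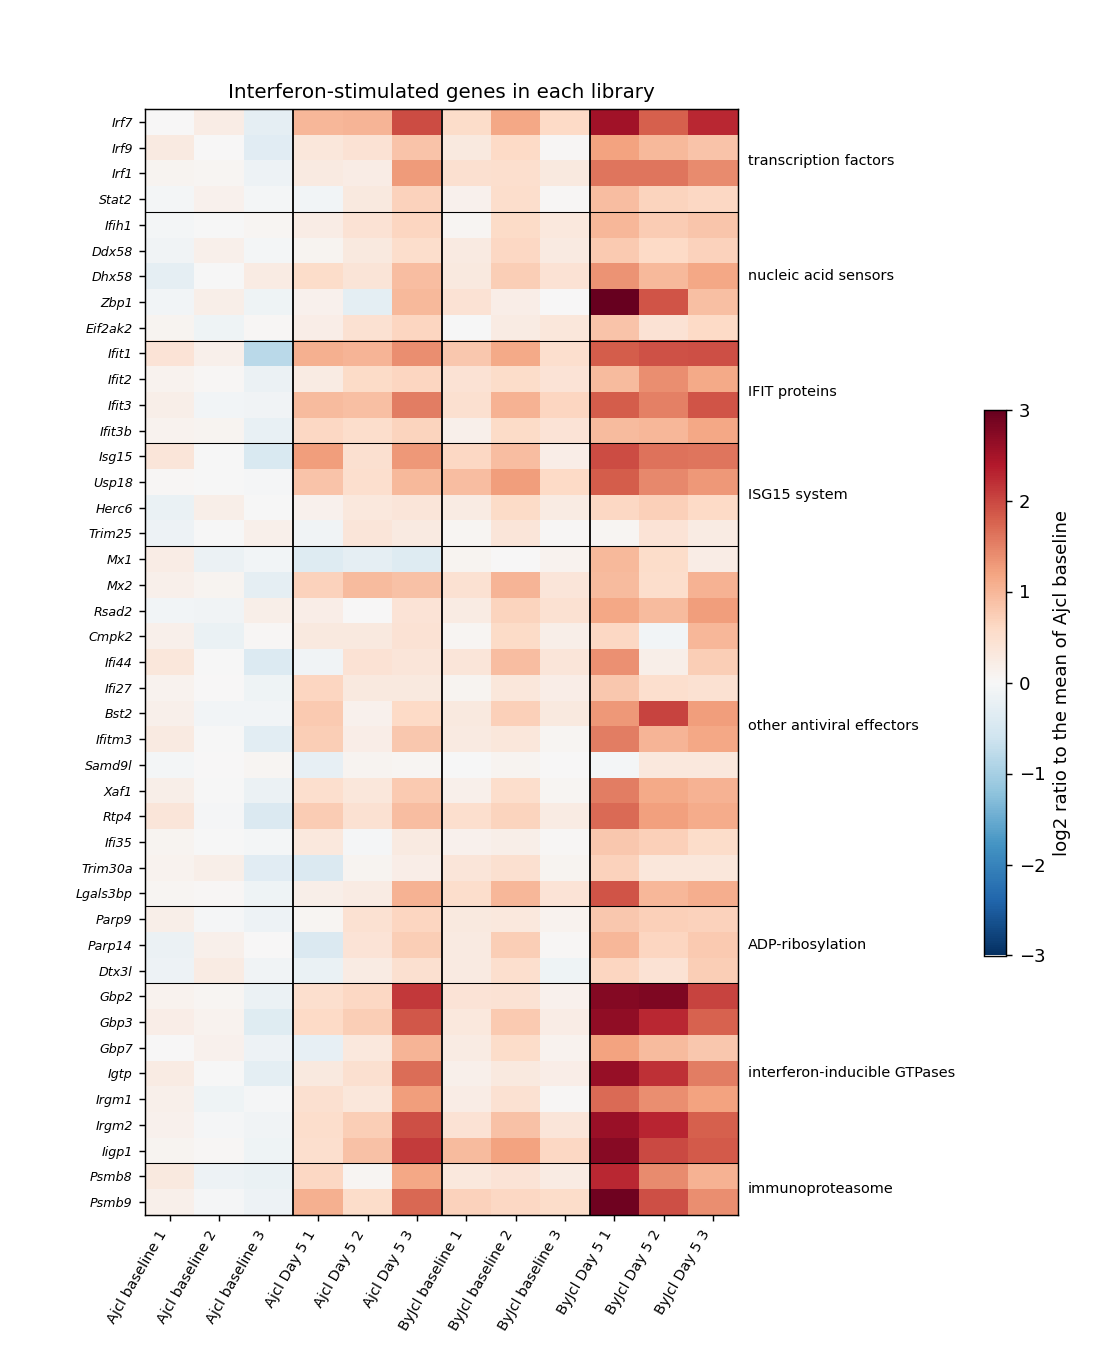
Log2 ratio of each member (rows, by role) to its mean level in Ajcl at baseline, with 0.5 CPM added before the logarithm, in each of the 12 libraries (columns). The colour scale ends at 3 in either direction. The ByJcl Day 5 libraries are the reddest, the GTPases and immunoproteasome genes are red in replicate 3 of Ajcl at Day 5 and paler in replicates 1 and 2, and Mx1 is blue in the Ajcl Day 5 libraries.

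Leukocyte markers also varied among the libraries. The 13 leukocyte markers (Ptprc, Lyz2, Cd68 and others, 12 of them tested) summed to 67.2, 50.1 and 43.8 CPM in Ajcl at baseline and 39.4, 35.2 and 72.1 CPM at Day 5. In ByJcl they summed to 71.3, 84.4 and 125 CPM at baseline and 133, 79.8 and 79.96 CPM at Day 5. Replicate 3 of Ajcl and replicate 1 of ByJcl, each the highest of its Day 5 group for most members, were also the highest of their groups in leukocyte markers. Over the members the mean log2 ratio to Ajcl baseline was 0.36, 0.40 and 0.91 in the Ajcl Day 5 libraries, 0.33, 0.61 and 0.25 in ByJcl at baseline and 1.45, 1.14 and 1.08 in ByJcl at Day 5. Replicate 3 of ByJcl at baseline had a leukocyte sum above those of replicates 2 and 3 at Day 5 and the lowest member mean of the 6 ByJcl libraries. Of the 12 tested markers 1, Cd68, was called higher in ByJcl at Day 5 (log2FC 1.17 ± 0.24, edgeR adjusted p = 0.0128), and their median log2FC was -0.22 in ByJcl and -0.22 in Ajcl. The plasmacytoid marker Siglech had 0 counts in 5 of 12 libraries. Podocyte markers moved the other way: 8 of 8 fell in ByJcl glomeruli by Day 5 (median log2FC -1.20), and 0 of 8 were called in Ajcl, where the median was -0.40. Of 6 markers of glomerular endothelium, Ehd3 (log2FC -0.81 ± 0.20, edgeR adjusted p = 0.0271) and Flt1 (log2FC -0.54 ± 0.15, edgeR adjusted p = 0.0471) fell in ByJcl at Day 5 (list median -0.43) and 0 were called in Ajcl. Of 4 mesangial markers 0 were called in either substrain. The part of these cell types in the member results was not tested.

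**Figure D2:**
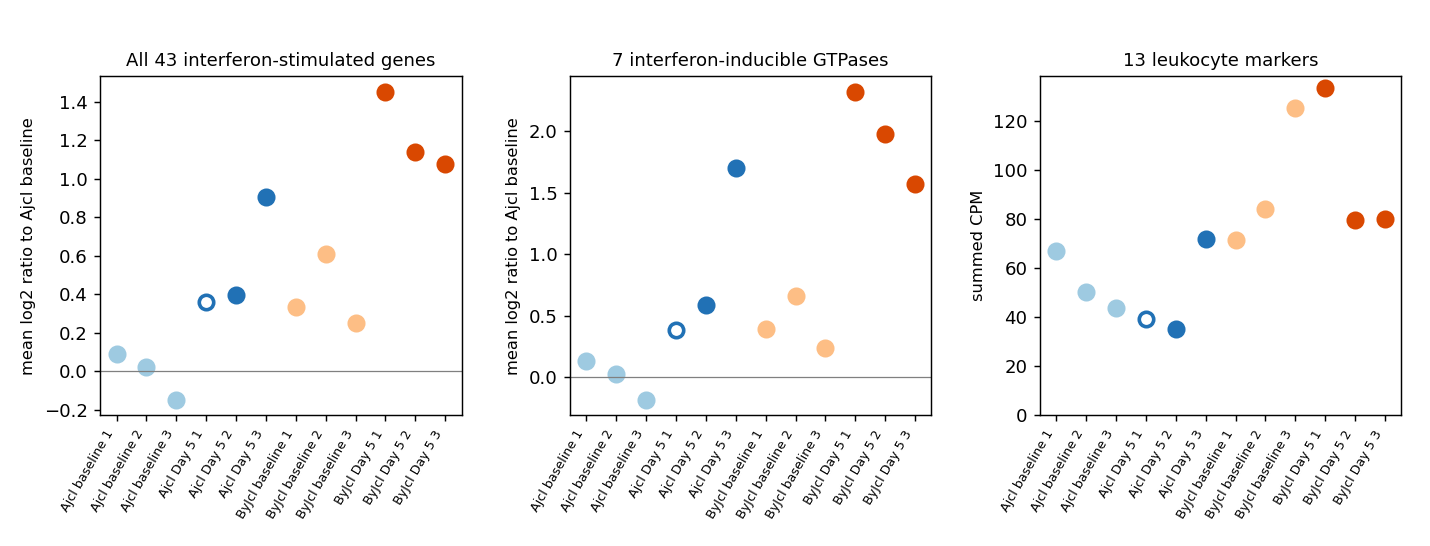
For each of the 12 libraries (x axis), the mean log2 ratio to Ajcl baseline over the 43 members (left) and over the 7 GTPases (middle), and the summed CPM of 13 leukocyte markers (right). Open points are the Ajcl Day 5 library left out of the fits. All 3 ByJcl Day 5 libraries lie above the other 9 in the left panel, and the right panel puts ByJcl baseline replicate 3 (125 CPM) near ByJcl Day 5 replicate 1 (133 CPM).

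Among the transcription factors, Irf1, which drives the genes induced by interferon gamma, stood at 53.4, 52.3 and 44.9 CPM in Ajcl at baseline and 60.7, 58.7 and 122 at Day 5, against 70.7, 71.9 and 61.6 in ByJcl at baseline and 155, 153 and 136 at Day 5. Values were highest in ByJcl at Day 5, and in Ajcl all Day 5 libraries lay above baseline, replicate 3 by far the most. In ByJcl this was a 2.22-fold rise (log2FC 1.15 ± 0.22, edgeR adjusted p = 0.00979), and in Ajcl the estimate did not pass (log2FC 0.87 ± 0.24, edgeR adjusted p = 0.222). Irf7, the master regulator of the type I interferon response, stood at 16.9, 19.8 and 13.9 CPM in Ajcl at baseline and 34.4, 34.7 and 66.6 at Day 5, against 25.1, 38.7 and 25.6 in ByJcl at baseline and 99.5, 60.2 and 82.2 at Day 5. Within each substrain every Day 5 library was above every baseline library. Irf7 rose in ByJcl (log2FC 1.47 ± 0.28, edgeR adjusted p = 0.00919) and had an estimate in Ajcl that did not pass (log2FC 1.61 ± 0.30, edgeR adjusted p = 0.0610). Irf9, the DNA-binding subunit of the complex that reads the ISRE, stood at 52.8, 44.1 and 34.6 CPM in Ajcl at baseline and 55.6, 59.2 and 79.4 at Day 5, against 54.1, 66.2 and 45.2 in ByJcl at baseline and 102, 86.1 and 80.004 at Day 5. It rose in ByJcl by less than the other 2, with clear separation of Day 5 from baseline (log2FC 0.73 ± 0.19, edgeR adjusted p = 0.0373). Stat2, its partner, did not pass in either substrain, with a log2FC of 0.53 in ByJcl (edgeR adjusted p = 0.0595) and 0.53 in Ajcl (edgeR adjusted p = 0.312).

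Among the nucleic acid sensors, Ifih1, the MDA5 sensor of long double-stranded RNA, stood at 26.2, 27.1 and 28.1 CPM in Ajcl at baseline and 31.96, 36.9 and 43.003 at Day 5, against 28.3, 40.4 and 33.6 in ByJcl at baseline and 54.9, 45.98 and 48.4 at Day 5. The Day 5 libraries were above the baseline libraries in both substrains by a small margin. It rose in ByJcl (log2FC 0.58 ± 0.13, edgeR adjusted p = 0.0218) and had the same size of estimate in Ajcl (log2FC 0.58 ± 0.15, edgeR adjusted p = 0.183). Zbp1, a sensor of left-handed nucleic acids that can trigger necroptosis, had counts of 10, 18 and 10 in Ajcl at baseline, 16, 6 and 51 in Ajcl at Day 5, 26, 18 and 15 in ByJcl at baseline and 287, 104 and 44 in ByJcl at Day 5. The 3 ByJcl Day 5 libraries were above all ByJcl baseline libraries but lay far apart from each other. Its log2FC of 2.99 in ByJcl was the highest of the 43 and the least precise of the calls (SE 0.77, edgeR adjusted p = 0.0325), and it was lost in 6 alternatives, the replicate block and 5 of the fits without 1 ByJcl library. Eif2ak2, the kinase PKR that stops translation on double-stranded RNA, stood at 30.2, 26.3 and 29.3 CPM in Ajcl at baseline and 32.9, 39.5 and 44.7 at Day 5, against 28.4, 33.8 and 36.6 in ByJcl at baseline and 51.7, 38.9 and 43.2 at Day 5. Its Day 5 libraries lay above baseline in both substrains, and it was called in ByJcl by a narrow margin (log2FC 0.47 ± 0.14, edgeR adjusted p = 0.0497), a call that was lost in 15 of the 18 alternatives. Ddx58, the sensor RIG-I (named Rigi in current annotation), and Dhx58, its regulator LGP2, did not pass, with edgeR adjusted p = 0.125 and 0.0557 in ByJcl.

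The IFIT proteins bind viral RNA that lacks the host cap pattern, and all 4 genes rose in ByJcl. Ifit3, which stabilizes IFIT1 on its target, stood at 16.7, 13.997 and 13.8 CPM in Ajcl at baseline and 29.1, 28.1 and 44.1 at Day 5, against 20.996, 31.2 and 23.5 in ByJcl at baseline and 53.9, 43.3 and 55.95 at Day 5. Every Day 5 library lay above every baseline library of its substrain, and it was called in both: log2FC 1.05 in ByJcl (edgeR adjusted p = 0.00891) and 1.31 in Ajcl (edgeR adjusted p = 0.0366). Ifit2, which promotes cell death in infected cells, stood at 43.98, 42.1 and 36.3 CPM in Ajcl at baseline and 48.6, 61.2 and 63.7 at Day 5, against 55.6, 59.8 and 54.01 in ByJcl at baseline and 78.97, 108 and 89.9 at Day 5, again without overlap within either substrain (log2FC 0.74 ± 0.12, edgeR adjusted p = 0.00522 in ByJcl). Ifit1, the cap-sensing member, stood at 14.3, 11.9 and 5.88 CPM in Ajcl at baseline and 23.1, 22.3 and 28.9 at Day 5, against 18.95, 23.97 and 15.4 in ByJcl at baseline and 38.995, 41.3 and 42.5 at Day 5. The ByJcl Day 5 values of Ifit1 were close together, while its Ajcl baseline values spread more widely (log2FC 1.10 ± 0.28, edgeR adjusted p = 0.0291 in ByJcl). Ifit3b stood at 21.5, 20.97 and 17.03 CPM in Ajcl at baseline and 30.5, 28.99 and 31.8 at Day 5, against 22.1, 29.9 and 26.5 in ByJcl at baseline and 38.4, 39.7 and 45.1 at Day 5. It rose in ByJcl as well (log2FC 0.68 ± 0.14, edgeR adjusted p = 0.0117), but 15.6% of its 150-base stretches are identical to Ifit3, so the split of reads between these neighbours is uncertain.

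Of the ISG15 system, Isg15, a ubiquitin-like modifier attached to newly made proteins, stood at 9.17, 6.96 and 4.99 CPM in Ajcl at baseline and 17.4, 10.04 and 18.1 at Day 5, against 11.1, 13.9 and 8.13 in ByJcl at baseline and 28.6, 22.6 and 22.3 at Day 5. The ByJcl Day 5 libraries stood apart from all others, and its rise was 2.27-fold (log2FC 1.18 ± 0.29, edgeR adjusted p = 0.0263). Usp18, the protease that removes ISG15 and restrains the type I receptor, stood at 9.22, 8.80 and 8.74 CPM in Ajcl at baseline and 16.5, 12.8 and 17.99 at Day 5, against 17.2, 22.1 and 13.6 in ByJcl at baseline and 32.9, 25.1 and 22.6 at Day 5. Its Day 5 libraries lay above baseline in both substrains, yet it did not pass in ByJcl (edgeR adjusted p = 0.0753). Trim25, a ubiquitin ligase that activates RIG-I, stood at 111, 124 and 139 CPM in Ajcl at baseline and 116, 161 and 149.8 at Day 5, against 130.1, 161 and 128 in ByJcl at baseline and 129, 165 and 147 at Day 5. In Ajcl the 2 fitted Day 5 libraries lay above baseline and replicate 1 within it, and in ByJcl baseline and Day 5 overlapped. Herc6, the ISG15 ligase of mouse cells, and Trim25 had log2FC values of 0.32 and 0.10 in ByJcl and were not called.

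Of the 14 other effectors, 7 were called in ByJcl. Bst2, or tetherin, which holds budding virions at the cell surface, stood at 41.8, 35.4 and 35.4 CPM in Ajcl at baseline and 65.4, 41.3 and 56.8 at Day 5, against 46.3, 62.1 and 45.96 in ByJcl at baseline and 92.5, 154 and 89.6 at Day 5. Its ByJcl Day 5 libraries were above all others, replicate 2 by a wide margin, and the rise was 2.22-fold (log2FC 1.15 ± 0.22, edgeR adjusted p = 0.00882). Ifitm3, which blocks membrane fusion of entering viruses and had the highest level per kb of exon of all members (310 CPM per kb in ByJcl at Day 5), stood at 200.2, 165 and 132 CPM in Ajcl at baseline and 277, 190.1 and 293 at Day 5, against 198, 209 and 174 in ByJcl at baseline and 485, 335 and 373 at Day 5. The ByJcl Day 5 libraries again stood apart, while Ajcl Day 5 replicate 2 lay within the Ajcl baseline range, and the test passed in ByJcl alone (log2FC 1.07 ± 0.21, edgeR adjusted p = 0.0114 against log2FC 0.57 ± 0.23, edgeR adjusted p = 0.442 in Ajcl). Xaf1, a pro-apoptotic antagonist of the caspase inhibitor XIAP, stood at 15.9, 13.98 and 12.5 CPM in Ajcl at baseline and 20.2, 18.1 and 24.8 at Day 5, against 15.9, 20.5 and 14.7 in ByJcl at baseline and 41.8, 31.7 and 29.8 at Day 5. The Day 5 libraries lay above baseline in both substrains, and the rise passed in ByJcl (log2FC 1.05 ± 0.19, edgeR adjusted p = 0.00789). Rtp4, a chaperone of G protein-coupled receptors that also acts against RNA viruses, stood at 20.7, 15.7 and 11.8 CPM in Ajcl at baseline and 27.8, 22.4 and 30.9 at Day 5, against 22.9, 25.7 and 19.2 in ByJcl at baseline and 53.3, 38.4 and 35.5 at Day 5. It followed the same order and rose in ByJcl (log2FC 0.94 ± 0.23, edgeR adjusted p = 0.0288).

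Ifi35, a partner of the transcription factor BATF, stood at 36.4, 34.3 and 33.2 CPM in Ajcl at baseline and 43.4, 33.5 and 41.6 at Day 5, against 37.7, 39.04 and 35.4 in ByJcl at baseline and 60.5, 57.2 and 50.95 at Day 5. In Ajcl the Day 5 libraries overlapped baseline (replicate 2), and in ByJcl they did not (log2FC 0.62 ± 0.12, edgeR adjusted p = 0.00971). Rsad2, or viperin, which makes a chain-terminating nucleotide, stood at 18.9, 18.8 and 22.8 CPM in Ajcl at baseline and 23.1, 20.4 and 26.8 at Day 5, against 23.8, 32.2 and 27.9 in ByJcl at baseline and 45.5, 39.3 and 48.9 at Day 5. It rose in ByJcl (log2FC 0.70 ± 0.15, edgeR adjusted p = 0.0152), where all Day 5 libraries were above baseline, while in Ajcl replicate 2 overlapped baseline. Ifi27, a small mitochondrial protein, stood at 82.5, 77.1 and 70.1 CPM in Ajcl at baseline and 120.2, 94.5 and 94.5 at Day 5, against 80.7, 96.3 and 88.1 in ByJcl at baseline and 134, 109 and 105 at Day 5. The Day 5 libraries lay above baseline by a small margin in both substrains, and the gene was called in ByJcl (log2FC 0.43 ± 0.12, edgeR adjusted p = 0.0442), a call that was lost in 11 of the 18 alternatives.

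Mx1, a dynamin-like GTPase that many laboratory mouse strains carry in a defective form, was near the floor with counts of 14, 6 and 8 in Ajcl at baseline, 2, 4 and 2 in Ajcl at Day 5, 12, 10 and 14 in ByJcl at baseline and 42, 24 and 15 in ByJcl at Day 5. All 3 Ajcl Day 5 libraries were below the Ajcl baseline libraries and all 3 ByJcl Day 5 libraries above theirs, but neither change passed (log2FC -1.64, edgeR adjusted p = 0.525 in Ajcl, and 1.30, edgeR adjusted p = 0.168 in ByJcl). Mx2, the second mouse Mx gene, stood at 3.91, 3.71 and 2.81 CPM in Ajcl at baseline and 5.92, 7.23 and 6.87 at Day 5, against 4.92, 7.61 and 4.62 in ByJcl at baseline and 7.15, 5.23 and 7.65 at Day 5, with groups that overlapped in ByJcl. The uncalled effectors other than Mx1, which are Mx2, Cmpk2, Ifi44, Samd9l, Trim30a and Lgals3bp, had log2FC values from 0.18 (Trim30a) to 0.76 (Lgals3bp) in ByJcl. Of the ADP-ribosylation genes, Parp9 stood at 36.3, 31.5 and 29.1 CPM in Ajcl at baseline and 33.8, 44.3 and 50.7 at Day 5, against 39.4, 40.1 and 34.6 in ByJcl at baseline and 57.01, 53.7 and 52.8 at Day 5, without overlap between baseline and Day 5 in ByJcl or between baseline and the 2 fitted Day 5 libraries in Ajcl, and it was called in ByJcl (log2FC 0.55 ± 0.12, edgeR adjusted p = 0.0154). Its complex partner Dtx3l was not called. Nor was Parp14, which stood at 61.5, 76.9 and 69.6 CPM in Ajcl at baseline and 51.4, 91.7 and 116 at Day 5, against 84.3, 117 and 71.2 in ByJcl at baseline and 139, 109 and 119 at Day 5. In Ajcl its 2 fitted Day 5 libraries lay above baseline and replicate 1 below it, and in ByJcl baseline and Day 5 overlapped.

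**Figure D3:**
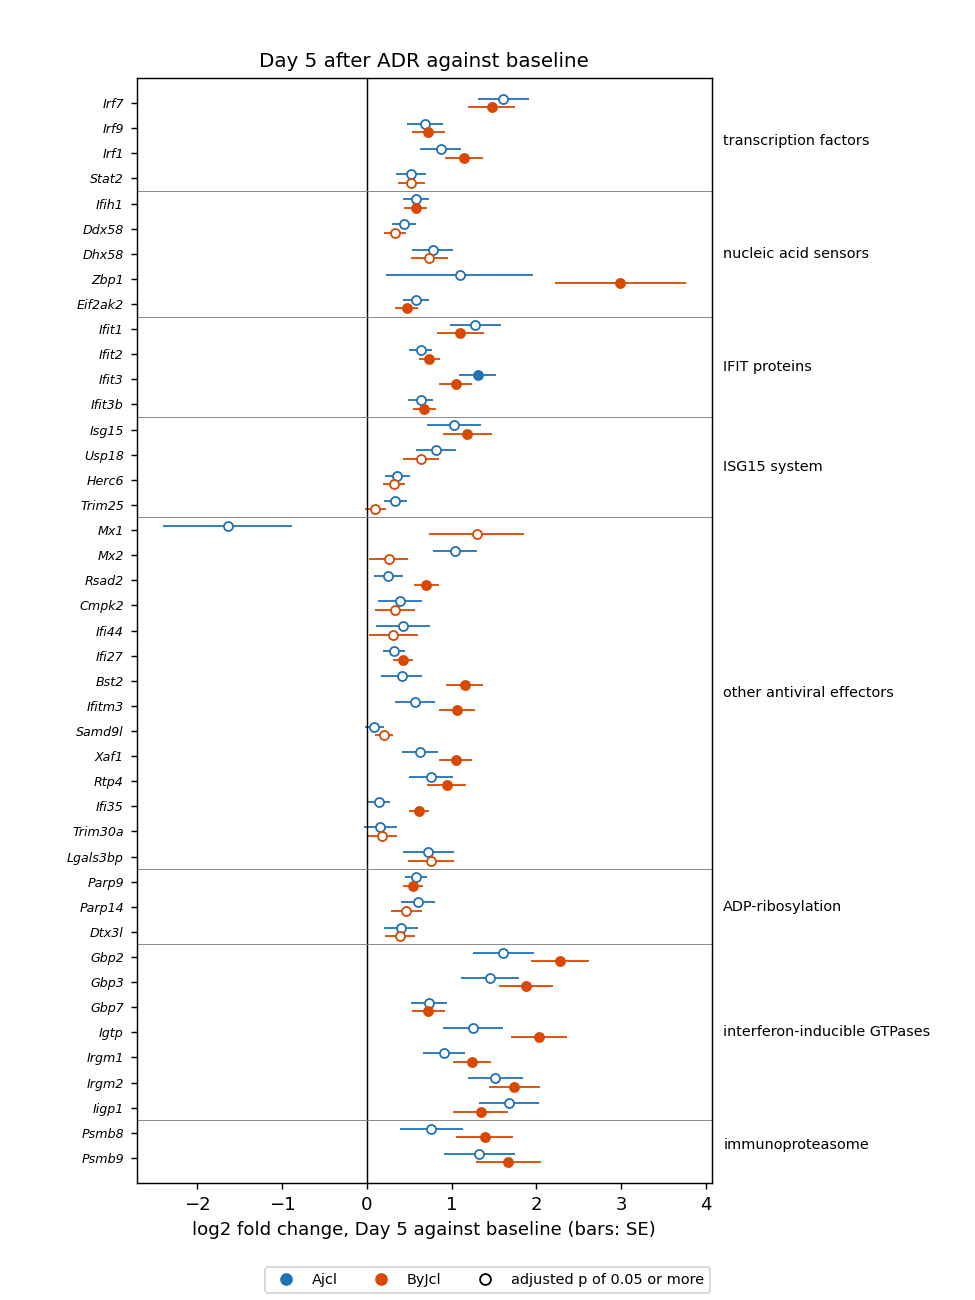
Log2 fold change from baseline to Day 5 after ADR (x axis) for each member (y axis, by role) in Ajcl (blue, 2 against 3 libraries) and ByJcl (orange, 3 against 3 libraries). Bars are the SE and filled points have an edgeR adjusted p below 0.05. There are 28 filled orange points and 1 filled blue point (Ifit3), and the 2 estimates lie on opposite sides of 0 for Mx1 alone.

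The interferon-inducible GTPases had the largest median log2FC of the 8 roles in both substrains, 1.74 in ByJcl and 1.45 in Ajcl. They comprise guanylate-binding proteins, which coat pathogen vacuoles, and immunity-related GTPases, which disrupt or regulate them, and many of them are classical targets of interferon gamma. Gbp2 stood at 19.8, 19.4 and 16.2 CPM in Ajcl at baseline and 26.4, 28.5 and 81.8 at Day 5, against 24.7, 25.2 and 20.4 in ByJcl at baseline and 127, 131 and 76.3 at Day 5. Every ByJcl Day 5 library was far above baseline, and in Ajcl replicate 3 reached the ByJcl Day 5 range while replicates 1 and 2 stayed well below it. Gbp2 rose 4.84-fold in ByJcl (log2FC 2.28 ± 0.34, edgeR adjusted p = 0.00327) and had an uncalled estimate of 3.05-fold in Ajcl (log2FC 1.61 ± 0.36, edgeR adjusted p = 0.126).

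Igtp, also known as Irgm3, stood at 15.3, 12.7 and 10.3 CPM in Ajcl at baseline and 15.9, 18.1 and 41.5 at Day 5, against 14.3, 15.7 and 14.7 in ByJcl at baseline and 80.1, 60.03 and 37.7 at Day 5. Irgm2 stood at 18.3, 16.3 and 15.4 CPM in Ajcl at baseline and 24.4, 28.03 and 64.9 at Day 5, against 22.7, 30.96 and 21.5 in ByJcl at baseline and 103, 82.6 and 58.9 at Day 5. For Gbp3 the values were 19.5, 18.2 and 13.04 CPM in Ajcl at baseline and 25.8, 28.6 and 62.4 at Day 5, against 21.1, 29.6 and 19.9 in ByJcl at baseline and 110.2, 83.5 and 59.2 at Day 5. In each of these 3 genes replicate 3 of Ajcl at Day 5 lay above the lowest ByJcl Day 5 library, and the other Ajcl Day 5 libraries did not. All rose in ByJcl, Igtp by 4.08-fold (log2FC 2.03 ± 0.33, edgeR adjusted p = 0.00462), Irgm2 by 3.33-fold (log2FC 1.74 ± 0.30, edgeR adjusted p = 0.00619) and Gbp3 by 3.67-fold (log2FC 1.88 ± 0.32, edgeR adjusted p = 0.00583). Igtp and Irgm2 share 162 exon bases on the same strand, so a small part of their reads cannot be told apart.

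Irgm1, which restrains the other immunity-related GTPases, stood at 37.5, 30.8 and 32.5 CPM in Ajcl at baseline and 47.01, 42.95 and 80.6 at Day 5, against 39.5, 46.3 and 34.7 in ByJcl at baseline and 110.0, 89.3 and 78.2 at Day 5. Its Day 5 libraries lay above baseline in both substrains, and it rose in ByJcl (log2FC 1.23 ± 0.22, edgeR adjusted p = 0.00751). Iigp1, which coats vacuoles of Toxoplasma and Chlamydia, stood at 16.1, 15.7 and 13.9 CPM in Ajcl at baseline and 21.6, 28.2 and 67.2 at Day 5, against 29.8, 35.9 and 23.6 in ByJcl at baseline and 104, 61.4 and 55.9 at Day 5. Its ByJcl baseline libraries all lay above the Ajcl baseline libraries, and it had the largest Ajcl estimate of all members (log2FC 1.68 ± 0.35, edgeR adjusted p = 0.101) beside its call in ByJcl (log2FC 1.35 ± 0.32, edgeR adjusted p = 0.0253), which was lost in 6 alternatives. Gbp7 stood at 66.9, 72.6 and 59.9 CPM in Ajcl at baseline and 56.3, 82.5 and 134 at Day 5, against 78.98, 97.5 and 71.3 in ByJcl at baseline and 154, 129 and 117 at Day 5. Ajcl Day 5 replicate 1 was the lowest of all 12 libraries, and the gene was called by a smaller margin in ByJcl (log2FC 0.72 ± 0.19, edgeR adjusted p = 0.0382) and lost in 7 of the 18 alternatives. Over the 7 genes the mean log2 ratio to Ajcl baseline was 0.38, 0.59 and 1.70 in the Ajcl Day 5 libraries and 2.32, 1.98 and 1.57 in the ByJcl Day 5 libraries, so that Ajcl replicate 3 lay within the ByJcl range. The leukocyte sums of these 6 libraries were 39.4, 35.2, 72.1, 133, 79.8 and 79.96 CPM in the same order.

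The immunoproteasome subunits, which replace constitutive proteasome subunits and alter the peptides offered to MHC class I, both rose in ByJcl. Psmb9 stood at 10.7, 9.25 and 8.57 CPM in Ajcl at baseline and 20.5, 14.1 and 32.6 at Day 5, against 15.8, 14.9 and 14.2 in ByJcl at baseline and 75.7, 37.7 and 25.8 at Day 5. For Psmb8 the values were 21.6, 15.9 and 15.3 CPM in Ajcl at baseline and 27.5, 18.3 and 40.02 at Day 5, against 22.2, 23.4 and 21.01 in ByJcl at baseline and 85.7, 47.8 and 37.05 at Day 5. The ByJcl Day 5 libraries were above their baseline for both genes but spread widely, with replicate 1 the highest and replicate 3 the lowest. The rises were 3.18-fold for Psmb9 (log2FC 1.67 ± 0.39, edgeR adjusted p = 0.0213) and 2.62-fold for Psmb8 (log2FC 1.39 ± 0.34, edgeR adjusted p = 0.0258). Both calls were lost in each of the 3 fits without 1 ByJcl baseline library, Psmb8 also without ByJcl Day 5 replicate 1 or 2. Psmb9 shares 743 exon bases with Tap1 on the opposite strand (19.6% of its exon bases), and the strand setting of the counting is not given in the sources used here. The same holds for Ifi35 with Vat1 (16.2%), Irf1 with Gm12216 (13.2%) and Parp9 with Dtx3l (9.12%).

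**Figure D4:**
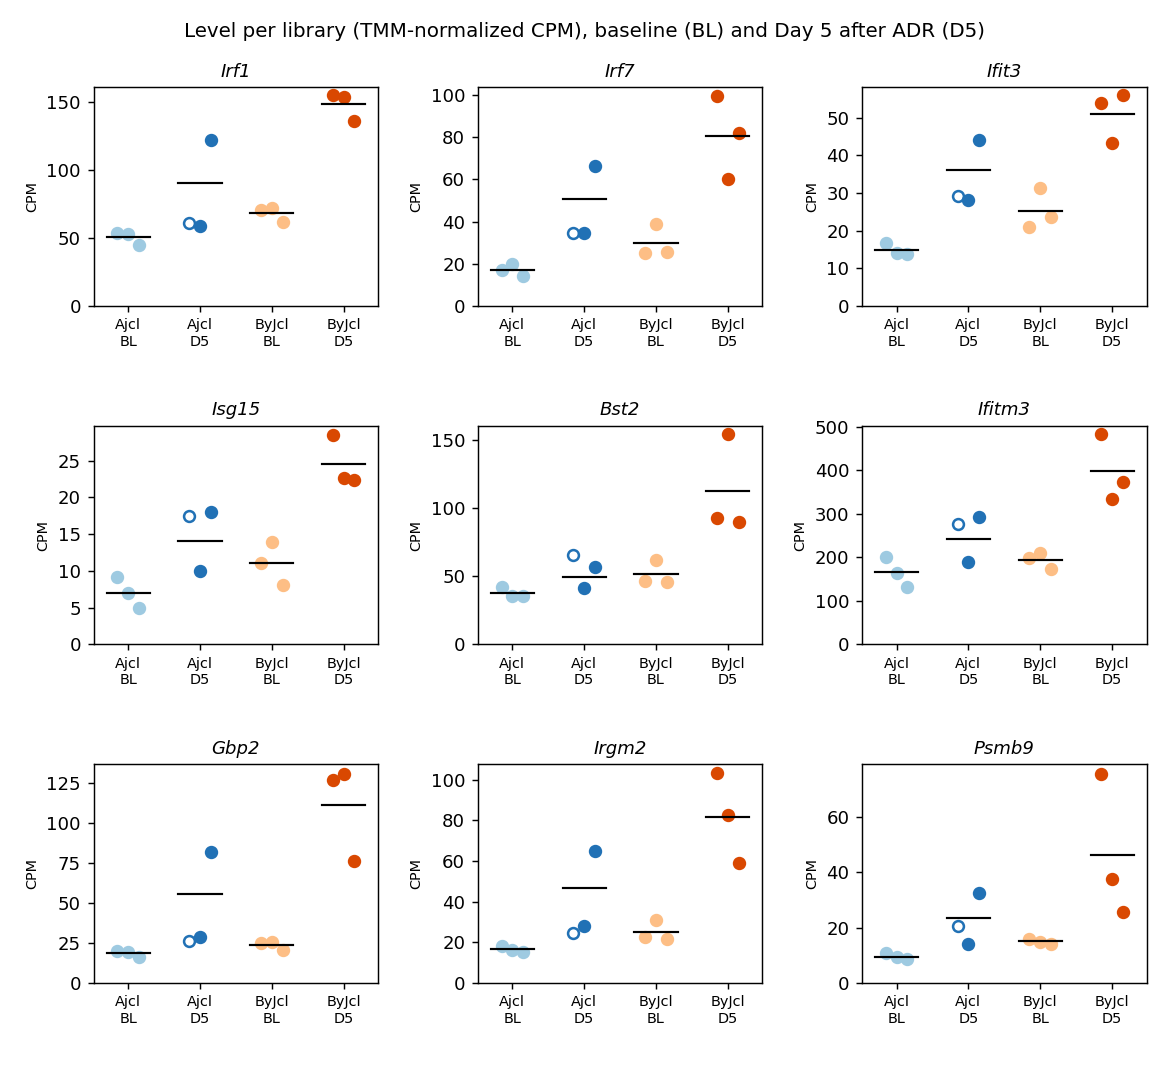
TMM-normalized CPM of 9 members (y axes, from 0) in the 12 libraries, by substrain at baseline (BL) and at Day 5 after ADR (D5). Points are libraries, lines are means over the fitted libraries, and the open point is Ajcl Day 5 replicate 1. In every panel the mean is highest in ByJcl at Day 5, and in the Gbp2 and Irgm2 panels Ajcl Day 5 replicate 3 (81.8 and 64.9 CPM) lies apart from the other Ajcl Day 5 libraries.

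Before treatment the members were higher in ByJcl in every estimate, but none passed the test. At baseline the log2FC of ByJcl against Ajcl lay above 0 for 43 of 43 members with a median of 0.40, beside a median of 0.0084 over all genes, and 51.4% of all genes had an estimate above 0. With edgeR 0 of 43 members were called higher (0.135% of all genes) and 0 lower (0.0235% of all genes), 16 had an unadjusted p below 0.05 against 1418 of 17002 genes, and DESeq2 called 2, Ifit3 and Usp18 (0.443% of all genes). In 21 of 43 members the 3 ByJcl libraries lay above the 3 Ajcl libraries without overlap, against 8.22% of all genes. Usp18 had the largest difference, 2.01-fold (log2FC 1.00 ± 0.21, edgeR adjusted p = 0.193), followed by Iigp1 (log2FC 0.99 ± 0.32, edgeR adjusted p = 0.548), Ifit1 (log2FC 0.88 ± 0.28, edgeR adjusted p = 0.530) and Irf7 (log2FC 0.83 ± 0.28, edgeR adjusted p = 0.556). Samd9l had the smallest (0.048). ByJcl baseline replicate 2 was the highest of its group for 39 of 43 members, against 36.8% of all genes, and without it the number at an unadjusted p below 0.05 was 7. Estimates above 0 were also found for 12 of 12 leukocyte markers (median log2FC 0.75), 8 of 8 podocyte markers (0.22), 4 of 4 mesangial markers (0.18) and 5 of 6 endothelial markers (0.16), with 0 called in each. The leukocyte sums in ByJcl (71.3 to 125 CPM) all lay above those in Ajcl (43.8 to 67.2 CPM). The 6 tubule markers had estimates below 0 in 6 of 6, with a median of -0.93 and 0 called. The part of these cells in the member differences was not tested.

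At Day 5 the difference between the substrains was of the same kind. The log2FC of ByJcl against Ajcl had a median of 0.60 over the members, beside 0.0019 over all genes, and 41 of 43 estimates lay above 0. With edgeR 0 of 43 were called higher (0.135% of all genes) and 0 lower (0.0294% of all genes), 27 had an unadjusted p below 0.05 against 2374 of 17002 genes, and DESeq2 called 5, Ifit2, Usp18, Rsad2, Bst2 and Ifi35 (2.27% of all genes). In 21 of 43 members the 3 ByJcl libraries lay above both fitted Ajcl libraries, against 15.1% of all genes. Rsad2 came closest to the threshold (log2FC 0.94 ± 0.17, edgeR adjusted p = 0.0716), then Bst2 (log2FC 1.22 ± 0.25, edgeR adjusted p = 0.0935) and Ifi35 (log2FC 0.61 ± 0.13, edgeR adjusted p = 0.108). The largest estimates belonged to the scarce transcripts of Mx1 (log2FC 3.19 ± 0.76, edgeR adjusted p = 0.125) and Zbp1 (log2FC 2.46 ± 0.87, edgeR adjusted p = 0.267), and Trim25 and Mx2 had estimates slightly below 0 that turned positive in some alternatives. Here too the outcome hung on the Ajcl Day 5 libraries: without replicate 3, 6 members were called (Irf1, Rsad2, Ifi35, Gbp2, Irgm1 and Irgm2) with a median of 0.93, against 218 of 17672 genes called in either direction (28 of 17002 in the reported fit). Without replicate 2 the median was 0.31 with 5 members at an unadjusted p below 0.05, and with replicate 1 added 2 were called, Mx1 and Rsad2, against 72 of 16612 genes. Without ByJcl Day 5 replicate 1, 11 members had an unadjusted p below 0.05. Of the markers of other cells 0 were called, and the median log2FC was 1.04 over 12 leukocyte markers, -0.66 over 8 podocyte markers, -0.084 over 6 endothelial markers, 0.14 over 4 mesangial markers and -1.11 over 6 tubule markers, and their part was not tested.

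**Figure D5:**
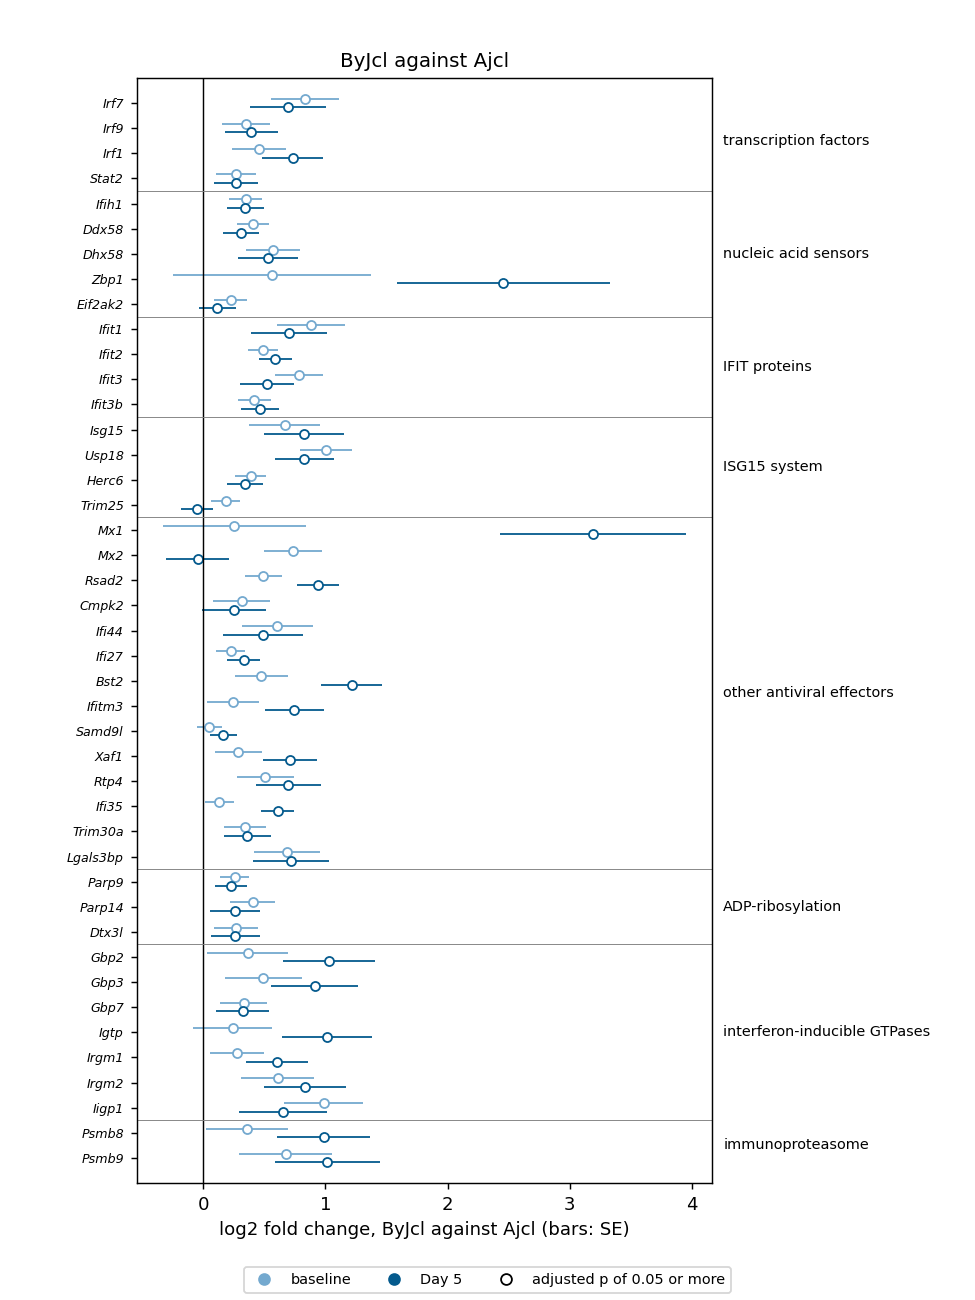
Log2 fold change of ByJcl against Ajcl (x axis) for each member (y axis, by role) at baseline (light blue, 3 against 3 libraries) and at Day 5 after ADR (dark blue, 3 against 2 libraries). Bars are the SE, and every point is open because no edgeR adjusted p was below 0.05. All 43 baseline points lie to the right of 0, and the Day 5 points of Trim25 and Mx2 lie just to its left.

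A group of 11 of 43 members lay higher in ByJcl without overlap both at baseline and at Day 5, against 2.36% of all genes, and the same 11 did so when Ajcl Day 5 replicate 1 was counted as well, against 2.12% of all genes. They were Irf1, Ifih1, Ddx58, Dhx58, Ifit1, Ifit2, Ifit3b, Usp18, Herc6, Rsad2 and Bst2. The group holds 3 of the 5 sensors and 3 of the 4 IFIT genes. Ddx58 stood at 39.9, 47.9 and 41.1 CPM in Ajcl at baseline and 45.6, 52.98 and 61.7 at Day 5, against 51.6, 66.01 and 51.6 in ByJcl at baseline and 73.96, 64.9 and 69.96 at Day 5. For Dhx58 the values were 3.58, 4.30 and 5.26 CPM in Ajcl at baseline and 6.65, 5.93 and 8.82 at Day 5, against 5.52, 7.59 and 6.14 in ByJcl at baseline and 11.95, 9.02 and 10.4 at Day 5. Each ByJcl library was above each Ajcl library of the same time. Herc6, at 19.3, 25.4 and 22.1 CPM in Ajcl at baseline and 24.4, 27.7 and 28.9 at Day 5, against 26.4, 33.4 and 26.6 in ByJcl at baseline and 34.4, 37.005 and 34.1 at Day 5, had the same ordering. None of the GTPases or immunoproteasome genes belongs to the group. In each of them Ajcl Day 5 replicate 3 overlapped the ByJcl Day 5 libraries, and in Gbp7, Igtp, Irgm1 and Psmb8 the substrains also overlapped at baseline.

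Whether the response to ADR differed between the substrains was tested as an interaction, the change in ByJcl minus the change in Ajcl. With edgeR 0 of 43 members were called in either direction (0% of all genes called higher and 0% lower), 4 had an unadjusted p below 0.05 against 1363 of 17002 genes, and DESeq2 called 0 members (0.0912% of all genes higher). The median over the members was 0.045, with 24 estimates above 0 and 19 below, beside 0.0028 over all genes. By group the median was 0.33 in the GTPases and 0.49 in the immunoproteasome, against -0.066 in the IFIT genes and -0.038 in the sensors. The largest estimates were those of Mx1 (log2FC 2.94 ± 0.95, edgeR adjusted p = 0.620), Zbp1 (log2FC 1.89 ± 1.17, edgeR adjusted p = 0.691), Mx2 (log2FC -0.78 ± 0.35, edgeR adjusted p = 0.621), Igtp (log2FC 0.77 ± 0.48, edgeR adjusted p = 0.691) and Bst2 (log2FC 0.74 ± 0.32, edgeR adjusted p = 0.621). The larger number of calls in ByJcl than in Ajcl is therefore not shown to be a difference in response. Ajcl had 1 library fewer in the reported fit. With all 12 libraries 1 member was called in Ajcl (54 of 16612 genes) and 24 in ByJcl (1197 of 16612 genes). The part of the number of libraries was not tested. Without Ajcl Day 5 replicate 3 the median of the interaction was 0.33, with 13 members at an unadjusted p below 0.05 and 0 called. Without Ajcl Day 5 replicate 2 it was -0.13, with 1 such member and 0 called, and without Ajcl baseline replicate 2 the number was 2.

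The rest of the pathway was read from lists of ligands, receptors, signalling proteins and brakes. Of 9 interferon genes, Ifna1, Ifna2, Ifna4, Ifne, Ifnl2 and Ifnl3 had 0 counts in all 12 libraries, and a count of 0 in a library allows up to 3 counts. Ifnb1 had 4 counts in each of 2 ByJcl Day 5 libraries and 0 in the other 10. Ifng, the product of activated T and natural killer cells, had 18 counts in ByJcl Day 5 replicate 2, 2 and 1 counts in Ajcl Day 5 replicates 2 and 3, and 0 in the other 9. Ifnk, an interferon of keratinocytes, had 2 counts in each of Ajcl baseline replicates 2 and 3, 6 in Ajcl Day 5 replicate 3, 4 in ByJcl baseline replicate 2, 2 in ByJcl Day 5 replicate 2 and 0 in the other 7. No ligand passed the filter, so none was tested. Of 6 receptor chains Ifngr1 was called in ByJcl at Day 5 (log2FC 0.60 ± 0.15, edgeR adjusted p = 0.0258) and the others, Ifnar1 and Ifnar2 among them, were not.

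Of the signalling genes, Stat3, which answers mainly to interleukin 6 family cytokines, rose in ByJcl (log2FC 0.58 ± 0.12, edgeR adjusted p = 0.0147), while Jak1, Jak2, Tyk2 and Irf3 were not called. Of the 4 brakes 3 rose in ByJcl: Socs3 (log2FC 1.35 ± 0.21, edgeR adjusted p = 0.00406), Socs1 (log2FC 1.17 ± 0.30, edgeR adjusted p = 0.0311) and the phosphatase Ptpn2 (log2FC 0.54 ± 0.13, edgeR adjusted p = 0.0232). Of 10 further genes of nucleic acid sensing, the adaptor Myd88 rose (log2FC 0.48 ± 0.11, edgeR adjusted p = 0.0180) and the endosomal RNA receptor Tlr7 fell (log2FC -1.29 ± 0.20, edgeR adjusted p = 0.00327). None of the receptor, brake and sensing lists had a call in Ajcl at Day 5 with edgeR. The Ajcl estimates of the genes named as called in ByJcl had the same direction. Their log2FC was -1.05 for Tlr7, 0.88 for Socs3, 0.50 for Stat3, 0.38 for Socs1, 0.33 for Ifngr1, 0.32 for Myd88 and 0.040 for Ptpn2. Of these DESeq2 called Tlr7 (adjusted p = 0.000846) and Socs3 (adjusted p = 0.0243) in Ajcl. Of the 8 Oas genes, a family named for oligoadenylate synthetase, Oasl2 was called in ByJcl at Day 5 after ADR (log2FC 0.94 ± 0.23, edgeR adjusted p = 0.0293) and 0 in Ajcl. There Oasl2 had an uncalled estimate of similar size (log2FC 1.08 ± 0.26, edgeR adjusted p = 0.143), and DESeq2 called it (adjusted p = 0.00719). Oas1a, Oas1b and Oas1g were called higher in ByJcl than in Ajcl at both times, where 0 of 43 members were, and Oas1a and Oas1g had 0 counts in the 6 Ajcl libraries.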

How the data were processed

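Glomerulus-enriched poly(A) RNA was sequenced as strand-specific paired reads in 12 libraries. After FastQC, Trimmomatic and a STAR alignment to GRCm39, the authors deposited whole-number featureCounts counts per gene symbol, not normalized, in separate baseline and Day 5 tables. The gene annotation and strand setting are not given in the sources used here. Between 77.1% and 82.9% of counts from 1 to 49 were even numbers. Groups and replicate numbers were taken from the labels, which do not state that replicates are separate animals, so p-values measure the spread between these libraries. No pair of replicates agreed within sampling noise (chi-square per degree of freedom at least 47.1).

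Counts were analysed in R 4.3.3 with edgeR 4.0.16 (filterByExpr, TMM, quasi-likelihood fit of 4 group coefficients over 11 libraries, 7 residual degrees of freedom), and 5 contrasts were tested at an adjusted p of 0.05. DESeq2 1.42.0, the tool of the study, was an alternative beside all 12 libraries, RLE size factors, other filters, a replicate block, fits of 2 groups and fits without each library. Simulated counts with the design of the ByJcl comparison were used to test the scripts. Depth was at least 42198416 counts per library, and which members it limits was not tested. The floors cover counting error only, while the SE of a log2FC also includes the spread between these libraries. The members and lists were chosen with earlier results of these data known, and 1 signalling gene is not reported here. Named genes are the called members, the 3 with the largest estimate per direction in each comparison of 2 groups, those without overlap between substrains at both times and the gene with the highest mean CPM, not scaled by length, of each role. Promoter windows are RefSeq's (GRCm38.p6), and positions, exon lengths and shared 150-base stretches come from GENCODE vM39 (42 members matched by symbol, Ddx58 as Rigi). Python 3.11.15 with pandas 2.3.3 and matplotlib 3.10.9 drew the plots.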

Additional observations from a re-analysis of the deposited data

Results flagged for a closer look

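For Mx1 the libraries separated in opposite directions in the substrains: every Ajcl Day 5 library lay below every Ajcl baseline library and every ByJcl Day 5 library above every ByJcl baseline library. Neither substrain passed (edgeR adjusted p = 0.525 in Ajcl and 0.168 in ByJcl). The interaction, tested with edgeR, had a log2FC of 2.94 with an adjusted p of 0.620 and did not pass. Counts were at most 14 in Ajcl and at most 42 in ByJcl.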

How the results depend on the processing

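The number of members called at Day 5 in Ajcl (1 in the reported fit) was 15 with DESeq2, 4 with no filter beyond 1 count, 0 with the replicate block, 0 when only the 2 groups were fitted and between 0 and 10 in the fits without 1 library, where the median log2FC lay between 0.38 and 0.85. In ByJcl (28) it lay between 15 and 28 without 1 library, while 680 to 2056 genes were called. With the replicate block 24 members were called, all of them among the 28, beside 1592 of 17002 genes. At baseline between the substrains (0) the number of members called was 2 with DESeq2 (101 of 16010 genes) and 0 with the replicate block (19 of 17002 genes). At Day 5 between the substrains (0) it was 2 with all 12 libraries, 5 with DESeq2, 1 with no filter, 0 with the replicate block and between 0 and 6 without 1 library, and the median lay between 0.31 and 0.93. The median of the interaction (0.045) lay between -0.13 and 0.33 without 1 library. The cause of these shifts was not tested, beyond the smaller number of libraries or genes that some alternatives use.

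Of the estimates for single genes under the alternatives, 633 kept their direction and side of the threshold, 84 kept the direction and lost the call, 12 gained a call and 5 changed sign. The changes of sign are uncalled differences between the substrains at Day 5: Trim25 at 0.076 with all 12 libraries, 0.0074 with the replicate block and 0.012 without ByJcl Day 5 replicate 1, and Mx2 at 0.032 with all 12 libraries and 0.10 without ByJcl Day 5 replicate 2. Over the fits without 1 library the lowest values were -0.14 for Trim25 and -0.14 for Mx2. The deviations of libraries with the same replicate number had correlations across genes between -0.387 and 0.531. Not every library correlated best with its own number. With so few libraries per group this cannot settle whether the numbers pair the libraries.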
